A study of Mus musculus with 6 samples.

Results

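The 10 genes described here lie close to Pogz on mouse chromosome 3 and were taken by position. Snx27 lies on 1 side of Pogz. Rfx5, Pi4kb, Zfp687, Pip5k1a, Vps72, Scnm1, Gabpb2, Mllt11 and Cdc42se1 follow, in that order, on the other side. All probe sets whose annotation names 1 of these genes and no other were used, which gave 20 probe sets for the 10 genes, of 34945 probe sets and 18194 genes in all. Counted in annotated genes of the GRCm38.p6 gene table, Snx27 is gene 10 before Pogz, and the others run from Rfx5, gene 6 after it, to Cdc42se1, gene 28 after it. Another 28 annotated genes, 10 of them with a probe set, lie in the same stretch.

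RNA of fetal liver (FL) cells was measured at embryonic day E14.5 in 3 Pogz-/- and 3 Pogz+/+ samples, labelled as biological replicates, on Affymetrix 3′ expression arrays. Pogz-/- embryos came from intercrosses of heterozygotes and carry on both copies an allele lacking the 3′ exons for some of the zinc fingers, the CENPB and DDE domains and part of the 3′ UTR. The deletion was made in the germ line through a β-actin-cre transgene, so every cell type carries it. Pogz+/+ embryos carry no deleted copy. Both genotypes were on a congenic C57BL/6 background after more than 10 backcross generations. The targeting vector and the ES cells came from a strain other than C57BL/6. The FL cells were an unsorted suspension of the whole organ, and no treatment was given.

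When a gene is targeted in ES cells of 1 strain and the mice are then crossed to another, sequence close to the target is the last to be exchanged. Genes beside the target can therefore carry alleles of the ES cell strain in mutants and of the recipient strain in wild-type embryos. A removed segment can also hold elements that act on neighbouring genes. An expression array probe reports binding of labelled RNA, so its signal depends on the amount of transcript, on which 3′ end the transcript has and on the match between probe and allele. The strain origin of the stretch and the probe sequences were not analysed here, and the part of either in the values below was not tested.

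The 10 genes encode proteins of several kinds. Gabpb2 encodes a β subunit of GA-binding protein, which binds DNA through its ETS-family α subunit. Rfx5 encodes a DNA-binding subunit of the regulatory factor X complex on the promoters of MHC class II genes. Zfp687 encodes a zinc finger protein of the nucleus, Vps72 an H2A.Z-binding subunit of chromatin remodelling complexes, and Mllt11 a small protein named as a fusion partner of KMT2A (MLL) in human leukaemia. Scnm1 encodes a zinc finger splicing factor. Pi4kb and Pip5k1a encode lipid kinases that make phosphatidylinositol 4-phosphate at the Golgi and phosphatidylinositol 4,5-bisphosphate. Snx27 encodes a sorting nexin of endosome recycling, and Cdc42se1 a small effector protein of the GTPase CDC42.

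Promoter windows of RefSeq, of 250 bases before to 50 bases after a start site (GRCm38.p6), were found for 7 of the 10 genes, with 9 windows between them. Vps72, Scnm1 and Snx27 were not among them. The Gabpb2 window is shown because a Gabpb2 probe set had the largest difference of the 20, and it spans chr3:95217893-95218192 on the minus strand. The letters CCGGAA, the core that GA-binding protein and other ETS factors bind, are in capitals. The windows of Mllt11 (chr3:95228628-95228927, minus strand) and of the Cdc42se1 start farther along the chromosome (chr3:95228693-95228992, plus strand) are shown because these genes start on opposite strands, 266 bases apart. They share 235 bases as exact reverse complements. In both, the GC box GGGCGG or its complement on the other strand is in capitals.
Gabpb2: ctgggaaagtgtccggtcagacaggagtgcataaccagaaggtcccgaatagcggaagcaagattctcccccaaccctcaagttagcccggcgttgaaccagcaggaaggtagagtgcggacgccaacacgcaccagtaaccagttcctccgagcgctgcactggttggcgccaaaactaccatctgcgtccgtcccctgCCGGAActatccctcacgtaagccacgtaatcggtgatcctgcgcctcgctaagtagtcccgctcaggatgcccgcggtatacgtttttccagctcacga
Mllt11: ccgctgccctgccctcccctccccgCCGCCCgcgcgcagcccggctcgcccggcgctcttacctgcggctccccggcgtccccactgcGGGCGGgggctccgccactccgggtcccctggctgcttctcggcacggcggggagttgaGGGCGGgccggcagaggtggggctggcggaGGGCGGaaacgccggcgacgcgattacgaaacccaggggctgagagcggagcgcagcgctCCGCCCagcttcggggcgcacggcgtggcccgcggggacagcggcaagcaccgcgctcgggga
Cdc42se1: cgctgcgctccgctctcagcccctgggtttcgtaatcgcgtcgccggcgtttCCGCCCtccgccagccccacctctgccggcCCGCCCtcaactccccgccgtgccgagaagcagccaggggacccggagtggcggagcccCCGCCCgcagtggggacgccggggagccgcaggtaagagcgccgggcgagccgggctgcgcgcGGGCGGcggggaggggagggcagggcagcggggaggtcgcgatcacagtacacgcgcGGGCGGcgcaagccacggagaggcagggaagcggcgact
CCGGAA was searched on both strands and occurred in 14.9% of 32851 promoter windows of the same length and in 3 of the 9 windows of these genes, those of Rfx5 and Gabpb2 and 1 of Cdc42se1. In that Cdc42se1 window it occurred on both strands, overlapping itself. The GC box occurred in 35.7% of all windows and 5 of the 9, and the box CCAAT in 37.4% of all windows and 3 of the 9. The Mllt11 and Cdc42se1 windows shown held 5 GC boxes each, and the boxes in their shared bases count in both. The counts over the 9 windows include windows that overlap. The FL values of this pair are given together below.

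The arrays differed in ways that touch these values. Pogz+/+ replicate 1 correlated with the other 5 arrays at 0.794 to 0.810 over all probe sets, against 0.884 to 0.906 among the others. The β-actin control probe sets, which compare signal at the 3′ and 5′ ends of a transcript, gave 3′ to 5′ ratios of 3.72 to 4.09 in Pogz-/- and of 5.50, 6.63 and 52.3 in Pogz+/+, the last in replicate 1. The Gapdh ratios were 4.87 to 5.08 in Pogz-/- and 7.37 to 15.3 in Pogz+/+. Median intensities were 29.7 to 31.5 in Pogz-/- and 35.9 to 54.3 in Pogz+/+ at an equal 2% trimmed mean, and the log2 fold change, taken as Pogz-/- over Pogz+/+, had a median of -0.23 over all 45037 probe sets. Over 6 arrays, limma called 0 probe sets at an adjusted p under 0.05 (0% of 45037), and 11.7% had an unadjusted p under 0.05. A second limma fit left out Pogz+/+ replicate 1 and used trend and robust settings. It is given beside the first and called the 5-array fit, and it rests on 2 Pogz+/+ arrays.

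Markers of the main FL cell types were present, with none at 0. The mean over 8 measured erythroid markers was 11.4 to 11.6 (log2) in Pogz-/- and 11.9 to 12.2 in Pogz+/+, while 8 hepatoblast markers gave 9.09 to 10.2 in Pogz-/- and 9.90 to 10.2 in Pogz+/+. For 7 markers of endothelium and stroma the mean lay at 4.93 to 5.28 in Pogz-/- and 5.71 to 6.04 in Pogz+/+. For 6 granulocyte markers it lay at 11.8 to 11.9 in Pogz-/- and 11.6 to 12.1 in Pogz+/+. The 5 markers of haematopoietic progenitors gave 8.21 to 8.34 in Pogz-/- and 7.88 to 8.28 in Pogz+/+. In the 5-array fit of limma, 5 erythroid and 1 hepatoblast marker were called lower in Pogz-/-, and 1 granulocyte and 2 progenitor markers higher. Of all probe sets, 1.22% were called lower and 1.45% higher in that fit. By log2 fold change over 6 arrays, 4 granulocyte markers were higher and 2 lower, and 2 progenitor markers were higher and 3 lower. The erythroid and hepatoblast lists each had 1 higher and 7 lower. The macrophage markers had 1 higher and 5 lower, and all 4 megakaryocyte markers were lower. The 7 measured markers of B cells and antigen presentation had 2 higher and 5 lower, and all 7 of endothelium and stroma were lower. Over all 45037 probe sets, 17182 were higher and 27855 lower. In whole FL, fewer cells of a type and less RNA per cell cannot be told apart, and the part of cell makeup in the values below was not tested. Of the 4 Pogz probe sets, 3 had a higher and 1 a lower mean in Pogz-/-, and none passed the threshold over 6 arrays or in the 5-array fit. The brightest, 1455046_a_at, read 9.16, 9.22 and 9.33 in Pogz-/- and 9.17, 9.03 and 8.95 in Pogz+/+ (limma adjusted p = 0.731). Dim probe set 1454827_at read 6.04, 5.94 and 5.92 in Pogz-/-, above 3.56, 4.98 and 2.84 in Pogz+/+ (log2 fold change 2.17, adjusted p = 0.382). Dim probe set 1457748_at read 5.83, 5.39 and 5.15 in Pogz-/-, above 4.82, 4.58 and 2.54 in Pogz+/+ (1.47, adjusted p = 0.440). The last, 1434650_at, overlapped, with a log2 fold change of -0.59. Whether these probe sets lie in the deleted exons was not determined, so they do not check the genotype.

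**Figure D1:**
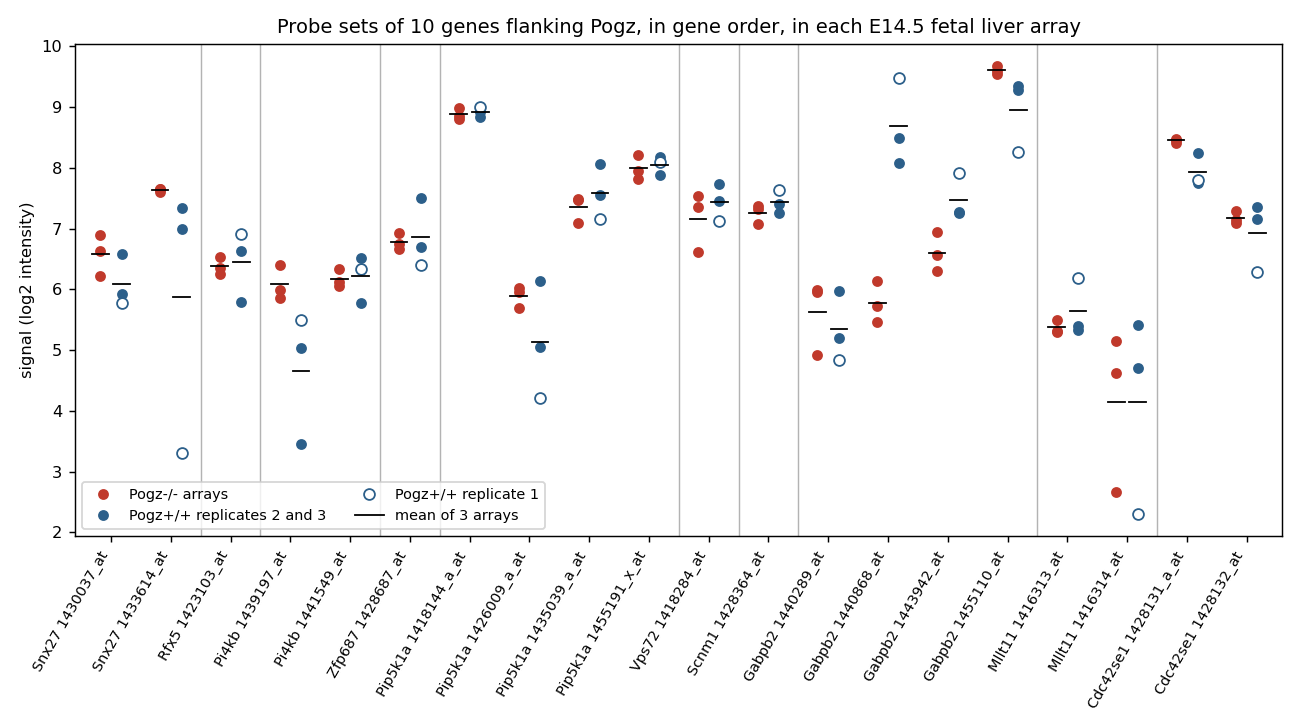
Log2 intensity of the 20 probe sets on each array, in gene order along chromosome 3, with Pogz-/- arrays left of Pogz+/+ arrays, Pogz+/+ replicate 1 as open circles and bars at the means of 3 arrays. Gabpb2 1440868_at shows the widest gap between genotypes, with Pogz-/- at 5.47 to 6.14 and Pogz+/+ at 8.09 to 9.47.

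Across the 20 probe sets, 9 were higher and 11 lower in Pogz-/-, with a median log2 fold change of -0.04, against -0.23 over all probe sets. In the 5-array fit 10 were higher and 10 lower, with a median of 0.00 against -0.13 over all. Of all 45037 probe sets, 17182 were higher and 27855 lower over 6 arrays, and 18680 and 26357 in the 5-array fit. With the brightest probe set of each gene alone, 3 genes were higher and 7 lower, with a median of -0.06, whereas the 5-array fit gave 6 higher and 4 lower, with a median of 0.01. None of the 20 had an adjusted p under 0.05 in limma over 6 arrays, where 0% of all did. An unadjusted p under 0.05 was found for 2 of the 20, both of Gabpb2 and both lower in Pogz-/-, against 11.7% of all probe sets. With trend and robust settings over 6 arrays, 0 were called higher and 1 lower, against 0.0311% and 0.00666% of all probe sets. In the 5-array fit the counts were again 0 higher and 1 lower, against 1.45% and 1.22%. The probe set called was Gabpb2 1440868_at in both. All 3 Pogz-/- arrays lay above all 3 Pogz+/+ arrays for 4 of the 20, against 9.1% of all probe sets, and below them for 2, against 15.8%.

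Gabpb2 had the largest difference among the 10 genes, and its 4 probe sets did not go the same way. Probe set 1440868_at read 6.14, 5.47 and 5.72 in Pogz-/- and 9.47, 8.09 and 8.49 in Pogz+/+. Every Pogz-/- array was low and every Pogz+/+ array high, with no overlap. The means were 5.78 ± 0.34 in Pogz-/- and 8.68 ± 0.71 in Pogz+/+ (SD over 3 arrays of each genotype), a log2 fold change of -2.90 with a standard error of 0.44 and a 95% interval of -3.99 to -1.81. The signal in Pogz-/- was 7.49-fold lower. This probe set ranked 125 of 45037 by p over 6 arrays, with a limma adjusted p of 0.259.

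The same probe set passed the threshold in the fits with trend and robust settings, at an adjusted p of 0.0324 over 6 arrays. In the 5-array fit it fell by 2.51 on the log2 scale (SE 0.25, 5.69-fold lower, limma adjusted p = 0.00102). Leaving out another array in place of Pogz+/+ replicate 1, with the same settings, gave 0.0302 without Pogz+/+ replicate 2 and 0.146 without Pogz+/+ replicate 3. The adjusted p was 0.162, 0.260 and 0.294 without Pogz-/- replicate 1, 2 and 3. In limma without trend and robust settings, leaving out 1 array in turn gave adjusted p-values of 0.224 to 0.526. The 0.224 was that without Pogz+/+ replicate 1. Over all 22 alternatives the log2 fold change lay between -3.20 and -2.24, and limma's or the methods' adjusted p between 0.000909 and 0.612. The 5 alternatives under 0.05 all used trend and robust settings.

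The other Gabpb2 probe sets did not share this value. Probe set 1443942_at was also lower in Pogz-/-, at 6.94, 6.57 and 6.30, against 7.92, 7.27 and 7.25 in Pogz+/+. Its arrays did not overlap between genotypes, and its log2 fold change was -0.88 (SE 0.32, limma adjusted p = 0.412). Probe set 1455110_at, the brightest of the gene, lay the other way, at 9.54, 9.67 and 9.60 in Pogz-/- and 8.25, 9.34 and 9.29 in Pogz+/+. Here all Pogz-/- arrays were above all Pogz+/+ arrays, and the log2 fold change was 0.64 in limma over 6 arrays (SE 0.37, adjusted p = 0.492) and 0.29 in the 5-array fit (SE 0.11, adjusted p = 0.232). Probe set 1440289_at overlapped between genotypes, at 6.00, 5.96 and 4.91 in Pogz-/- and 4.85, 5.98 and 5.20 in Pogz+/+.

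The difference between Gabpb2 probe sets was tested itself, by fitting each probe set minus the brightest of its gene for the 16751 such probe sets of all genes. Set against 1455110_at, probe set 1440868_at was lower in Pogz-/- by a log2 value of -3.55 more (SE 0.72, 95% interval -5.31 to -1.79, adjusted p = 0.435 in limma). The 5-array fit gave -2.80 (adjusted p = 0.420). For 1443942_at against the same probe set it was -1.52 (adjusted p = 0.519). In these fits 0% of the 16751 passed an adjusted p of 0.05, over 6 arrays as over 5 (0%), and 9.49% had an unadjusted p under 0.05.

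The order of the arrays by Gabpb2 signal was set beside their order by β-actin ratio. By signal of 1440868_at, the 6 arrays stood in the same order as by their β-actin ratio, and by signal of 1455110_at in the opposite order. The same order was found for 1.07% of all probe sets and for 1 of the 20, and the opposite order for 0.626% of all and 1 of the 20. This comparison was chosen after the values were seen. Neither probe set followed the order of the Gapdh ratio in full. By the Gapdh ratio, Pogz-/- replicate 1, at 5.01, came before replicate 3, at 5.08. The β-actin ratio put replicate 3 before replicate 1. Pogz+/+ replicate 1, with the highest ratio, read 1.19 above the mean of the other Pogz+/+ arrays for 1440868_at, 0.66 above it for 1443942_at and 1.06 below it for 1455110_at. The part of RNA quality in the Gabpb2 values was not tested. Without that array the Pogz-/- and Pogz+/+ arrays stayed apart for all 3 probe sets. Their β-actin ratios stayed apart too, at 3.72 to 4.09 in Pogz-/- and at 5.50 and 6.63 in Pogz+/+. Genotype and ratio therefore cannot be told apart in these arrays.

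**Figure D2:**
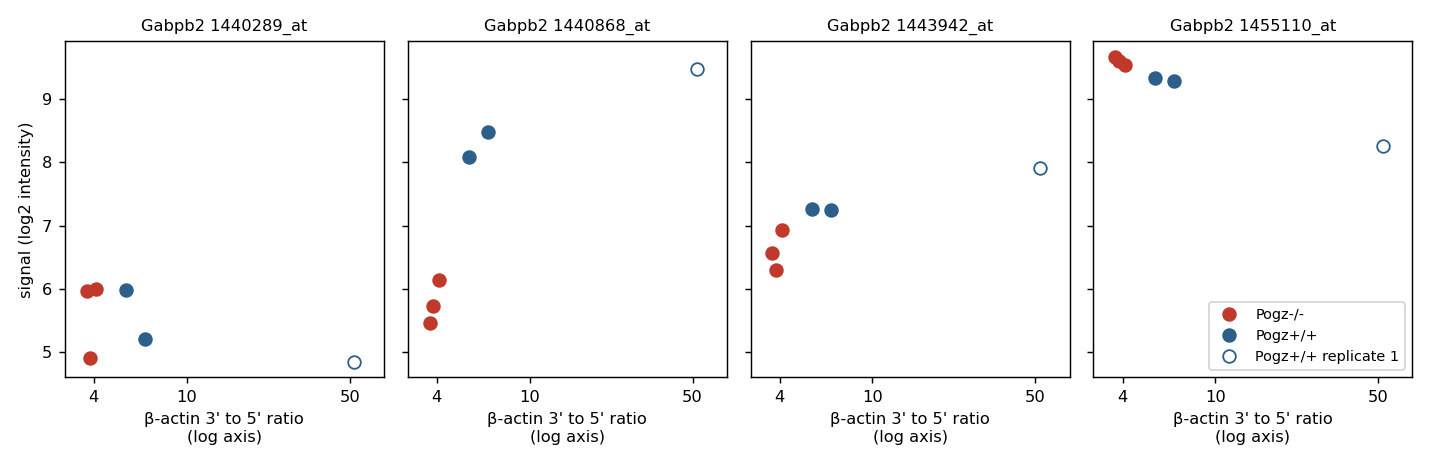
Log2 intensity of the 4 Gabpb2 probe sets (y axis) against the β-actin 3′ to 5′ ratio of the same array (x axis, log scale), with Pogz-/- arrays in red and Pogz+/+ arrays in blue, replicate 1 open. The Pogz-/- arrays lie at ratios of 3.72 to 4.09, and for 1440868_at at 5.47 to 6.14, below every Pogz+/+ array.

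The other genes for nuclear proteins showed smaller differences. Rfx5 1423103_at read 6.53, 6.36 and 6.25 in Pogz-/- and 6.92, 6.63 and 5.80 in Pogz+/+. Its Pogz-/- arrays lay inside the Pogz+/+ range (log2 fold change -0.07, 95% interval -0.96 to 0.83, limma adjusted p = 0.947). The mean over 7 measured markers of B cells and antigen presentation, which include MHC class II genes, overlapped too, at 5.21 to 5.56 in Pogz-/- and 5.24 to 6.14 in Pogz+/+.

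Zfp687 1428687_at read 6.94, 6.67 and 6.75 in Pogz-/- and 6.40, 7.50 and 6.69 in Pogz+/+, with the Pogz-/- arrays inside the wider Pogz+/+ range. Its log2 fold change was -0.08 (95% interval -0.97 to 0.81, limma adjusted p = 0.934). Vps72 1418284_at was at 7.35, 7.54 and 6.62 in Pogz-/- and 7.12, 7.45 and 7.74 in Pogz+/+. Pogz-/- replicate 3 was the lowest of the 6 and the rest overlapped (log2 fold change -0.27, 95% interval -1.14 to 0.61, adjusted p = 0.749). Scnm1 1428364_at, of the splicing factor, was at 7.33, 7.37 and 7.08 in Pogz-/- and 7.63, 7.26 and 7.41 in Pogz+/+. The genotypes overlapped (log2 fold change -0.18, 95% interval -0.79 to 0.43, adjusted p = 0.765).

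Mllt11 and Cdc42se1, whose start sites lie beside each other, are given together, and a difference between these genes was not tested. Mllt11 1416313_at read 5.50, 5.32 and 5.30 in Pogz-/- and 6.19, 5.34 and 5.40 in Pogz+/+. Apart from the Pogz+/+ replicate 1 array, all arrays lay close together, and the log2 fold change of -0.27 over 6 arrays (95% interval -1.06 to 0.53, limma adjusted p = 0.720) was 0.00 in the 5-array fit. The other Mllt11 probe set, 1416314_at, had a mean signal under the median of all probe sets. It ranged from 2.66 to 5.15 in Pogz-/- and from 2.30 to 5.42 in Pogz+/+, and its interval, -2.57 to 2.57, sets no narrow bound on a difference.

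Cdc42se1 1428131_a_at read 8.47, 8.41 and 8.48 in Pogz-/- and 7.80, 7.75 and 8.25 in Pogz+/+. All Pogz-/- arrays were high and lay within a narrow range, above all Pogz+/+ arrays. The means were 8.45 ± 0.04 in Pogz-/- and 7.93 ± 0.27 in Pogz+/+ (SD over 3 arrays of each genotype), a log2 fold change of 0.52 (SE 0.25, limma adjusted p = 0.458) and of 0.45 in the 5-array fit (adjusted p = 0.212). The second probe set, 1428132_at, overlapped between genotypes, at 7.30, 7.14 and 7.10 in Pogz-/- and 6.29, 7.16 and 7.36 in Pogz+/+. Its difference of 0.24 turned to -0.08 without Pogz+/+ replicate 1, its lowest array.

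Both lipid kinase genes had several probe sets. Pi4kb 1439197_at was at 5.86, 5.99 and 6.40 in Pogz-/- and 5.50, 5.04 and 3.45 in Pogz+/+. Every Pogz-/- array was above every Pogz+/+ array, and Pogz+/+ replicate 3 was far below the others. The means were 6.09 ± 0.28 in Pogz-/- and 4.66 ± 1.08 in Pogz+/+ (SD over 3 arrays of each genotype), a log2 fold change of 1.43 (SE 0.58, 95% interval -0.01 to 2.86, limma adjusted p = 0.428). In the 5-array fit it was 1.84 (SE 0.48, adjusted p = 0.0737). Limma without trend and robust settings gave an adjusted p of 0.407 on the same 5 arrays. Over all 22 alternatives the log2 fold change lay between 0.82 and 2.12, and the adjusted p between 0.0193 and 0.684.

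The brighter Pi4kb probe set, 1441549_at, showed no such gap. It read 6.13, 6.34 and 6.05 in Pogz-/- and 6.34, 6.52 and 5.78 in Pogz+/+, with a log2 fold change of -0.04 (95% interval -0.77 to 0.69). The difference between both Pi4kb probe sets was 1.47 (SE 0.49, adjusted p = 0.513 in limma) and 1.82 in the 5-array fit (adjusted p = 0.509).

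For Pip5k1a the brightest probe set, 1418144_a_at, varied little. It read 8.85, 8.98 and 8.81 in Pogz-/- and 9.01, 8.84 and 8.93 in Pogz+/+, with a log2 fold change of -0.05 (95% interval -0.60 to 0.51, limma adjusted p = 0.940). Probe set 1455191_x_at also overlapped, at 7.81 to 8.22 in Pogz-/- and 7.88 to 8.18 in Pogz+/+, as did 1435039_a_at, at 7.09 to 7.49 in Pogz-/- and 7.16 to 8.06 in Pogz+/+. The overlap of 1435039_a_at came from Pogz+/+ replicate 1. Its log2 fold change of -0.24 (adjusted p = 0.758) was -0.46 in the 5-array fit (adjusted p = 0.323). Limma without trend and robust settings gave an adjusted p of 0.567 on the same 5 arrays. Probe set 1426009_a_at read 5.95, 6.03 and 5.69 in Pogz-/- and 4.22, 6.13 and 5.05 in Pogz+/+, and its log2 fold change of 0.76 (adjusted p = 0.545) was 0.30 in the 5-array fit.

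Snx27, on the other side of Pogz, was higher in Pogz-/- by the means of both its probe sets. Probe set 1433614_at read 7.61, 7.66 and 7.65 in Pogz-/- and 3.30, 6.99 and 7.34 in Pogz+/+. The Pogz-/- arrays lay close together and above all Pogz+/+ arrays, of which replicate 1 was far the lowest. The means were 7.64 ± 0.03 in Pogz-/- and 5.88 ± 2.24 in Pogz+/+ (SD over 3 arrays of each genotype), so that 1 array decided the log2 fold change of 1.76 (SE 1.10, 95% interval -0.97 to 4.50, limma adjusted p = 0.517). In the 5-array fit the value was 0.48 (SE 0.18, adjusted p = 0.226). Limma without trend and robust settings gave an adjusted p of 0.487 on the same 5 arrays. Probe set 1430037_at overlapped, at 6.22, 6.90 and 6.63 in Pogz-/- and 5.77, 6.58 and 5.92 in Pogz+/+, with a log2 fold change of 0.49 (adjusted p = 0.549).

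**Figure D3:**
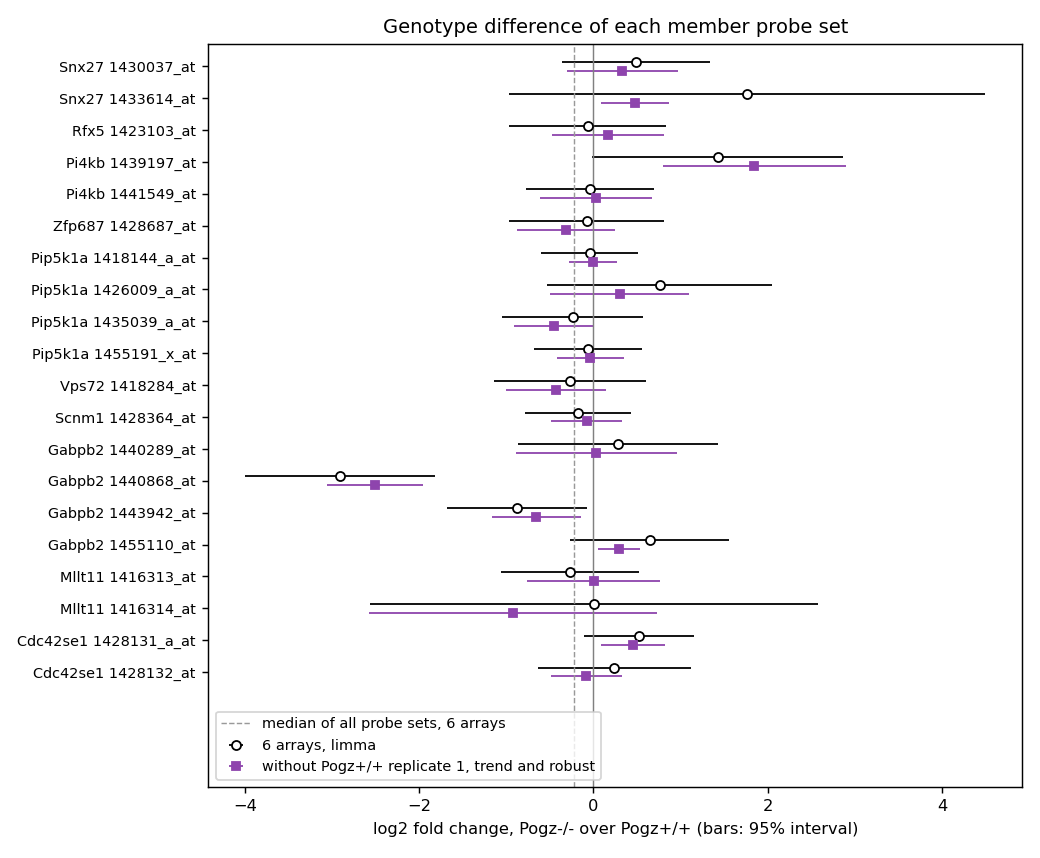
Log2 fold change (Pogz-/- over Pogz+/+) of each of the 20 probe sets with its 95% interval, from limma over 6 arrays (open circles) and without Pogz+/+ replicate 1 with trend and robust settings (squares), with the median of all probe sets dashed at -0.23. The 2 intervals that exclude 0 over 6 arrays are those of Gabpb2 1440868_at and 1443942_at, and neither passed the adjusted threshold over 6 arrays.

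Of the 10 genes, 6 had more than 1 probe set, which made 10 pairs of a probe set with the brightest of its gene. The signs of the log2 fold changes differed in 5 of the 10 pairs (50%), against 44.4% of the 16751 pairs of all genes. Gabpb2 gave 2 of these 5, Mllt11, Pi4kb and Pip5k1a gave 1 each, and Cdc42se1 and Snx27 gave none. The Mllt11 pair rests on a log2 fold change of 0.00 for its dim probe set. Without Pogz+/+ replicate 1 the signs again differed in 5 of the 10, but in the Cdc42se1 pair and no longer in that of Pi4kb, against 44.7% of all pairs. The mean of the Pogz-/- arrays and Pogz+/+ replicate 1 lay on opposite sides of the mean of the other Pogz+/+ arrays for 11 of the 20 probe sets (55%). This was so for 53.2% of all.

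The other measured genes of the stretch were described in the same way. The 17 probe sets of the 10 other genes between Snx27 and Cdc42se1 had 7 higher and 10 lower in Pogz-/-, with a median log2 fold change of -0.07, and 0 were called over 6 arrays or in the 5-array fit. All Pogz-/- arrays were above all Pogz+/+ arrays for 3 and below them for 2, against 9.1% and 15.8% of all probe sets. Among the 25 genes with a probe set on either side of Pogz, 40 were not members. Their 72 probe sets had 25 higher and 47 lower, with a median of -0.29. The counts over all 45037 probe sets were 17182 higher and 27855 lower, with a median of -0.23. In the 5-array fit 1 of the 72 was called higher and 0 lower, against 1.45% and 1.22% of all probe sets. That one was S100a10 1416762_at, of an annexin-binding protein and named here after its values were seen, at 8.84, 8.91 and 9.18 in Pogz-/- and 7.56, 8.34 and 8.09 in Pogz+/+. Its log2 fold change was 0.98 in limma over 6 arrays (adjusted p = 0.389) and 0.77 in the 5-array fit (adjusted p = 0.0229). The brightest S100a10 probe set, 1456642_x_at, and 1439348_at overlapped between genotypes, at 0.02 and 0.12 over 6 arrays. The median over the remaining 1692 probe sets of chromosome 3 was -0.16.

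Next to Pogz, Psmb4, of a proteasome subunit, again had probe sets that differed. Probe set 1451205_at read 11.31, 11.20 and 11.13 in Pogz-/- and 10.25, 10.88 and 11.08 in Pogz+/+, and 1438984_x_at read 11.99, 11.70 and 11.83 in Pogz-/- and 12.46, 12.19 and 12.15 in Pogz+/+. Each kept the genotypes apart, in opposite directions, and neither passed the threshold over 6 arrays (log2 fold changes 0.48 and -0.43, limma adjusted p = 0.522 and 0.488). Cgn, of the tight junction protein cingulin and next to Pogz on the other side, had 1 probe set at 0.56 and a dim one at -0.32, both overlapping. Elsewhere in the stretch the highest values were those of Tuft1 1416689_at at 1.06 (adjusted p = 0.389), Selenbp1 1417580_s_at at 0.65 and the Cgn value above. The 5-array fit of limma gave 0.79 for this Tuft1 probe set (adjusted p = 0.0712) and 0.42 for this Selenbp1 probe set (adjusted p = 0.134). The brighter Selenbp1 probe set, 1450699_at, overlapped, at 0.21 over 6 arrays and 0.41 in the 5-array fit. The lowest were those of Sema6c 1437652_at at -0.97, Tmod4 1449969_at at -0.88 and Sema6c 1451898_a_at at -0.81, all of dim probe sets. The brightest Sema6c probe set, 1423454_a_at, overlapped, at -0.19 over 6 arrays and 0.59 in the 5-array fit.

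**Figure D4:**
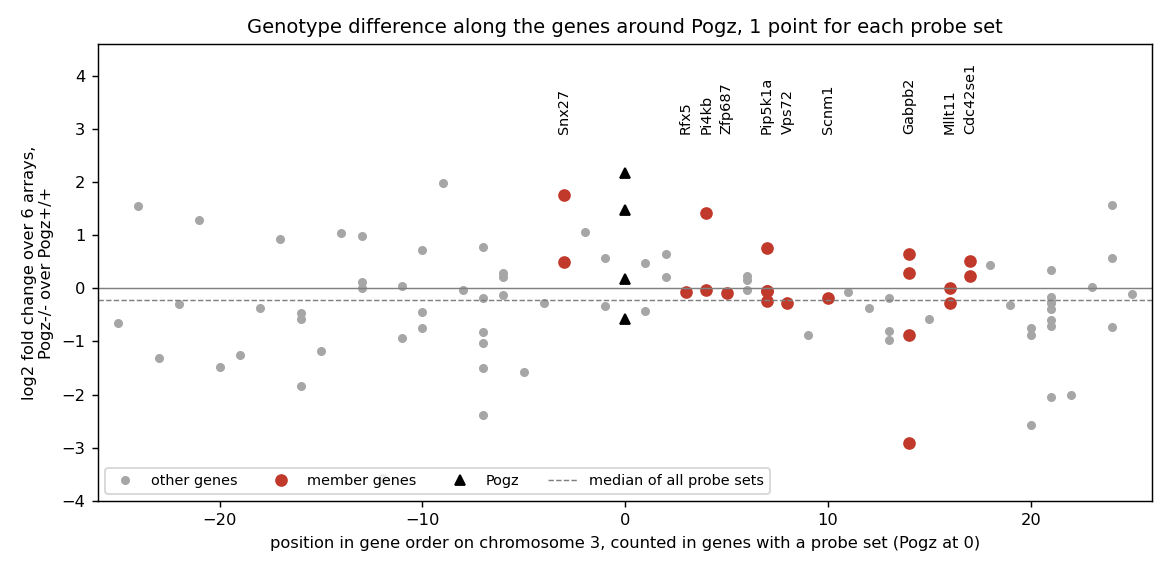
Log2 fold change over 6 arrays (Pogz-/- over Pogz+/+, y axis) of each probe set of Pogz (triangles), the 10 genes (red) and the other genes among 25 on either side (grey), against position in gene order along chromosome 3 with Pogz at 0 (x axis). The 20 red points run from -2.90 for Gabpb2 1440868_at to 1.76 for Snx27 1433614_at, and the dashed line is the median of all probe sets, -0.23.

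The scale set between arrays moved the directions of several differences. With quantile normalization the median of the 20 probe sets was 0.14 against 0.00 over all, and with each array centred on its median it was 0.42 against 0.23. Gabpb2 1440868_at remained lower in Pogz-/- in both, at -2.83 and -2.44. In the 5-array fit with median centring, 2767 of all 45037 probe sets were called higher and 145 lower, against 654 and 548 without centring. Under that scale 4 further of the 20 probe sets of the 10 genes passed limma's adjusted threshold, all higher in Pogz-/-. They were Pi4kb 1439197_at (2.12, adjusted p = 0.0193), Gabpb2 1455110_at (0.56, adjusted p = 0.0155), Snx27 1433614_at (0.75, adjusted p = 0.0358) and Cdc42se1 1428131_a_at (0.73, adjusted p = 0.0325). In the same fit 4 of the 17 other probe sets of the stretch were called higher, as were 2 of the 4 of Pogz. Those of the stretch were Tuft1 1416689_at, Psmb4 1451205_at, Selenbp1 1417580_s_at and Selenbp1 1450699_at.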

How the data were processed

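The arrays measured RNA of E14.5 FL in 3 Pogz-/- and 3 Pogz+/+ samples after 3′ IVT labelling of 100 ng RNA. The deposited values are intensity values on a linear scale, which the authors made in Affymetrix Expression Console according to the submitters' processing notes. Its version was not given in the sources used here, nor was its algorithm. Their 2% trimmed mean is 150 on each array. Log2 was taken with no pseudocount, 64 control probe sets were left out, and 45037 were tested. The probe annotation names 1 gene for 34945 of these, several for 932 and none used here for 9160.

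Genotype was fitted over all 6 arrays in R 4.3.3 with limma version 3.58.1, by lmFit followed by eBayes. Tests were two-sided, p-values were adjusted over the 45037 probe sets by Benjamini-Hochberg, and the rows of the 10 genes were read from it. The fit was tested on simulated data that gave a probe set the same spread in every array. That test therefore does not cover an array like Pogz+/+ replicate 1. The alternatives covered scaling, a filter on dim probe sets, trend and robust settings, left-out arrays, covariates, a pseudocount, a 1.5-fold threshold and the methods' t-test. Leaving out the other arrays with trend and robust settings, the fit of differences between probe sets of a gene and the order by β-actin ratio were added after seeing the data. A probe set was called dim when its mean log2 signal was under 4.91, the median of all. With 3 arrays against 3, an exact permutation test cannot go below p = 0.1, so none was used. No source used here says whether replicates shared a litter.

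The names given are those of all probe sets of the 10 genes, of Pogz, of the measured gene on each side of it, and of the 3 highest and 3 lowest log2 fold changes among other genes of the stretch. S100a10, outside the stretch, was added after its values were seen. The 10 genes and all lists were chosen with earlier results of these data known.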

Additional observations from a re-analysis of the deposited data

How the results depend on the processing

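Among all 45037 probe sets, 0 were called over 6 arrays, against 2 by the methods' t-test, 17 with trend and robust settings and, without Pogz+/+ replicate 1 and with those settings, 1202 as deposited, 974 after quantile normalization and 2912 after median centring. Of the 20 probe sets of the 10 genes, 0 were called over 6 arrays, against 1, 1, 1 and 5 in the last 4 of these fits. Among neighbours the counts were 0 over 6 arrays and 1, 1 and 5 in the last 3. With 1 array left out in turn, under either setting, the counts ran from 0 to 6 for all probe sets other than in the fits named above, and from 0 to 1 for the 20. The median log2 fold change of the 20 moved to 0.42 with median centring, 0.14 with quantile normalization and 0.27 with median centring in the 5-array fit, and ran from -0.076 to 0.18 with 1 array left out. By gene it moved to 0.40, 0.082 and 0.29 in the same fits and to 0.18 with quantile normalization in the 5-array fit, and ran from -0.14 to 0.068.

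No probe set whose direction turned passed the threshold under any setting tried. With median centring, values turned to 0.19 for Mllt11 1416313_at, 0.41 for Pip5k1a 1418144_a_at, 0.22 for Pip5k1a 1435039_a_at, 0.40 for Pip5k1a 1455191_x_at, 0.19 for Vps72, 0.39 for Rfx5, 0.28 for Scnm1, 0.38 for Zfp687, 0.42 for Pi4kb 1441549_at, 0.14 for Cgn 1430329_at and 0.028 for Psmb4 1438984_x_at. With quantile normalization they turned to 0.10 for Mllt11 1416313_at, 0.051 for Rfx5, 0.066 for Zfp687, 0.19 for Pi4kb 1441549_at and 0.12 for Cgn 1430329_at. In the 5-array fit they turned to 0.0043 for Mllt11 1416313_at, -0.92 for Mllt11 1416314_at, 0.17 for Rfx5, -0.081 for Cdc42se1 1428132_at and 0.023 for Pi4kb 1441549_at. With median centring added, that fit gave 0.28 for Mllt11 1416313_at, -0.65 for Mllt11 1416314_at, 0.27 for Pip5k1a 1418144_a_at, 0.23 for Pip5k1a 1455191_x_at, 0.44 for Rfx5, 0.19 for Scnm1 and 0.30 for Pi4kb 1441549_at. With quantile normalization added it gave 0.24 for Mllt11 1416313_at, -0.65 for Mllt11 1416314_at, 0.25 for Rfx5, -0.11 for Cdc42se1 1428132_at and 0.12 for Pi4kb 1441549_at. A covariate of Y-linked signal turned Mllt11 1416314_at to -0.79, Rfx5 to 0.050 and Pi4kb 1441549_at to 0.017, and a pseudocount of 16 turned Mllt11 1416314_at to -0.050. With 1 array left out, values ran from -0.42 to 0.0043 for Mllt11 1416313_at, from -0.92 to 0.74 for Mllt11 1416314_at, from -0.17 to 0.031 for Pip5k1a 1455191_x_at, from -0.45 to 0.0072 for Vps72, from -0.39 to 0.17 for Rfx5, from -0.081 to 0.45 for Cdc42se1 1428132_at, from -0.31 to 0.24 for Zfp687, from -0.26 to 0.11 for Pi4kb 1441549_at, from -0.65 to 0.27 for Cgn 1430329_at and from -0.049 to 0.89 for Cgn 1435155_at. The cause of these turns was not tested.

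The correlations of same-numbered arrays' deviations from their genotype means were 0.0078, -0.0044 and -0.0050. Arrays with different numbers gave -0.015 to 0.020. With 3 arrays of each genotype, these values cannot show whether the numbers pair the samples. With the replicate number as a block, 0 of the 20 probe sets were called, as without it, and the adjusted p of Gabpb2 1440868_at in limma was 0.485, against 0.259. The number of arrays and the spread of Pogz+/+ replicate 1 limit the precision. The genes were measured by 1 to 4 probe sets each, whose places in the transcripts were not analysed here.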
